A study of Homo sapiens with 4 samples.

Results

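Small nucleolar RNAs (snoRNAs) and the related small Cajal body RNAs (scaRNAs) were examined in HuCCT1, an established line of human bile duct cancer cells (cholangiocarcinoma). Members were the genes whose symbol begins with SNORA, SNORD or SCARNA and a number, taken from array rows annotated with exactly 1 symbol. This gave 192 of 18377 named genes, comprising 61 box H/ACA genes (SNORA), 115 box C/D genes (SNORD) and 16 scaRNA genes (SCARNA). The 4 arrays held cells given VPA, cells given GEM, cells given GEM and VPA together (GEM_VPA) and untreated cells, with 1 array each. VPA and GEM are read in their usual senses for cancer cells, valproic acid, a histone deacetylase inhibitor, and gemcitabine, a nucleoside analogue. All groups are the same line. Dose, exposure time, scan batch and whether cultures were separate are not known from the labels. With 1 array per condition, ratios have no error and no p-value unless limma is named, and whether a ratio exceeds the spread between cultures cannot be judged.

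Box C/D snoRNAs carry fibrillarin and its partners to target RNAs and guide 2'-O-methylation, while box H/ACA snoRNAs work with dyskerin and guide the conversion of uridine to pseudouridine. Most targets of both classes are in ribosomal RNA, a few members of each class instead take part in cutting the ribosomal RNA precursor, and scaRNAs guide the same modifications on the RNAs of the spliceosome inside Cajal bodies. In human cells most of these RNAs are trimmed from introns of longer host transcripts, many of them genes for ribosomal proteins, translation factors and nucleolar proteins, so 1 transcript can yield several guides. RNA was prepared here with a silica column kit, a method that recovers short RNAs poorly, recovery was not measured, and a row placed on an intronic RNA can also read the unspliced host transcript.

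The starts of 4 host genes of members described below are shown because a start serves every guide cut from that transcript. They were picked from 12 host windows looked up, and are all 3 with a run as defined here and 1 of the 9 without. The sequences are RefSeq windows on GRCh38.p14 of 70 bases, 40 before the annotated start and 30 from it on, 5' to 3' on the gene's strand. Capitals mark C and T letters in an unbroken row of at least 5, counted from the first C that lies within 5 bases of the start, a simple search for the pyrimidine tract with which many translation genes begin. Letters further upstream stay in lower case even where they are C or T. RABGGTB, which holds SNORD45A, SNORD45B and SNORD45C, starts in chr1:75786216-75786285 on the plus strand. RPL13A, which holds SNORD32A, SNORD33, SNORD34 and SNORD35A, starts in chr19:49487568-49487637 on the plus strand. SNHG8, a non-coding host that holds SNORA24, starts in chr4:118278722-118278791 on the plus strand. TNPO2, an import receptor gene that holds SNORD41, starts in chr19:12723903-12723972 on the minus strand.
RABGGTB: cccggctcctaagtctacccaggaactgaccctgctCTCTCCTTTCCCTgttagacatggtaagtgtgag
RPL13A: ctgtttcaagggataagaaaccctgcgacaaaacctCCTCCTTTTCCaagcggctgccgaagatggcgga
SNHG8: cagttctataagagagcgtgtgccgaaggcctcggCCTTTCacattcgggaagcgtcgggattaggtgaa
TNPO2: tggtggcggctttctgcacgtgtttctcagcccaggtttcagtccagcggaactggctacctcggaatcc
Counted this way the run had 13 letters in RABGGTB, 11 in RPL13A and 6 in SNHG8, and TNPO2 had none. With the 2 C or T letters before it in RABGGTB and the 3 in RPL13A, the unbroken stretches are 15 and 14 letters long. Such a run was found in 35 of 77 member hosts with a RefSeq window (45.5%), in 24 of the 66 that are not ribosomal protein genes (36.4%) and in 21.1% of all 27305 windows. A run is a match of letters and was not tested as a functional element.

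Levels are the deposited log2 intensities. Of the 192 members, 80 were at or above the array median on all 4 arrays, 16 on 1 to 3 arrays and 96 on none. The 80 comprised 30 box H/ACA, 43 box C/D and 7 scaRNA genes. The SNORD113, SNORD114, SNORD115 and SNORD116 families, repeated guides of imprinted loci best known from brain, supplied 46 box C/D members. None of these 46 reached the median on any array, their levels lay between 4.42 and 6.53, and no ratio among them exceeded 0.43 in size on the log2 scale. Copies within these families, and SNORD13 with its pseudogene copies, can be near-identical, so their rows are uncertain for the single gene.

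All 7 biliary epithelial marker genes checked (KRT7, KRT8, KRT18, KRT19, EPCAM, CDH1 and SOX9) were at or above the median on every array, and PTPRC, CD3E, CD79A, ALB, TTR, COL1A2, DCN, PECAM1 and VWF were below it on every array. Of the markers of other cells, APOA1 (hepatocyte list) lay between 8.35 and 8.42, and COL1A1 (fibroblast list) was at 9.06 with VPA, 9.15 with GEM, 8.81 with GEM_VPA and 8.76 in untreated cells. Of the 5 leukocyte markers, CD68 was at 10.99 with VPA, 10.98 with GEM, 9.70 with GEM_VPA and 10.05 in untreated cells, and LYZ was at 7.86, 8.40, 6.69 and 7.41 on the same arrays. Both were higher with either single drug than with GEM_VPA or in untreated cells. CD68 was above the median on every array, and LYZ reached it only with GEM. The part of other cells in the members' ratios was not tested. Over the 80 members at level, the arrays labelled VPA and GEM correlated at 0.994 and those labelled GEM_VPA and untreated at 0.987, while the other pairs of arrays lay between 0.958 and 0.969. These correlations are across genes, which are not replicates. The robust SD of member differences (80 genes) was 0.143 between VPA and GEM and 0.236 between GEM_VPA and untreated. With no level filter the last pair had 0.233 over the 192 members and 0.147 over all genes. Members were thus spread further than genes in general between those 2 arrays.

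VPA alone was set against no drug. SCARNA7 was furthest above untreated cells, and SNORA13 and SNORD45B were furthest below. Members counted as different had a log2 ratio of 1 or more in size, the 2-fold limit stated for the study, and a higher value that reached its array's median. Of 95 members at level 3 were counted, 1 as higher and 2 as lower, against 4.00% of all 11611 genes at level (1.90% higher and 2.09% lower). SCARNA7, a guide of spliceosomal RNA, was at 10.65 with VPA, 10.39 with GEM, 9.42 with GEM_VPA and 9.59 in untreated cells. It was thus high on the single-drug arrays and low on the remaining arrays, and was 2.09-fold higher with VPA than in untreated cells. SNORA13, a box H/ACA guide of ribosomal RNA, was at 6.91 with VPA, 7.36 with GEM, 7.87 with GEM_VPA and 8.38 in untreated cells. It was lowest with VPA and highest in untreated cells, a log2 ratio of -1.47. SNORD45B, a box C/D guide of small-subunit ribosomal RNA, was at 6.99, 7.20, 7.50 and 8.16 on the VPA, GEM, GEM_VPA and untreated arrays, and its VPA ratio was -1.17. The VPA levels of SNORA13 and SNORD45B lay below the array median, where values are compressed.

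Short of the 2-fold limit, SNORA38B was at 0.92 (log2 ratio, VPA over untreated), SNORD96A at -0.85, SNORA24 at -0.84 and SNORA3B at -0.84. SNORA19 (-1.03) and SNORD1A (-1.15) passed 2-fold but stayed under the level limit. Over all 192 members the median ratio was -0.09, with 113 below 0 and 78 above 0, and over all 18377 genes it was -0.01. Of the members, 18.2% were at least 0.5 away from 0, against 15.9% of all genes.

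**Figure D1:**
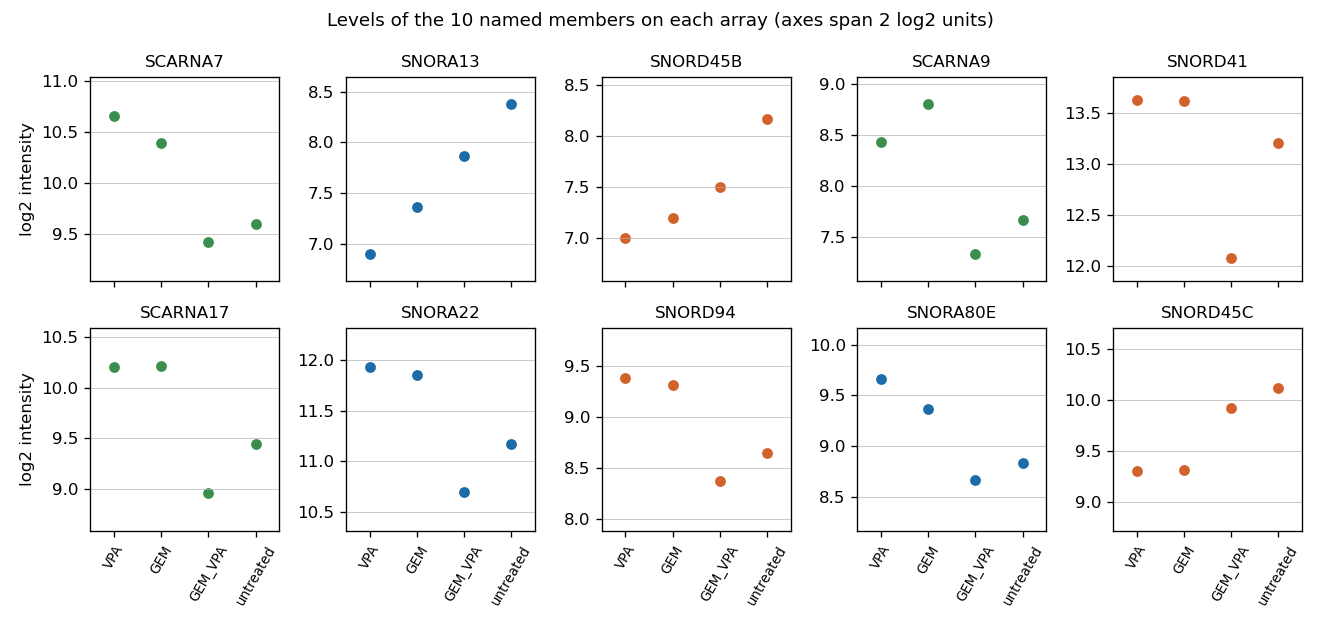
Log2 intensity of the 10 members named by the rule on the VPA, GEM, GEM_VPA and untreated arrays (1 array each, 1 point per array; every vertical axis spans 2 log2 units). SCARNA7, SCARNA9, SCARNA17, SNORA22, SNORA80E, SNORD94 and SNORD41 are high on the VPA and GEM arrays, and SNORA13, SNORD45B and SNORD45C are low there.

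GEM alone was set against no drug, using the same untreated array. Of 94 members at level 2 were counted as different, 1 as higher and 1 as lower, against 4.49% of all genes at level (1.48% higher and 3.01% lower). SCARNA9, a long scaRNA that guides spliceosomal RNA, was at 8.43 with VPA, 8.81 with GEM, 7.33 with GEM_VPA and 7.66 in untreated cells. Its GEM ratio was 1.15 (2.21-fold), and its 2 rows gave 0.57 and 1.72, so the size is uncertain. The untreated and GEM_VPA levels of SCARNA9 lay below their array medians, where values are compressed. SNORA13 was again lower, at -1.01, and its GEM level lay below the array median. SNORD45B (-0.96), SNORD45C (-0.80), SCARNA7 (0.80) and SNORA3B (-0.79) came next below the limit. The median over all members was -0.05, with 109 below 0 and 82 above 0, and -0.01 over all genes.

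The drugs together were set against no drug. Few ratios were large here, and most were slightly below 0. Only SNORD41, a box C/D guide of large-subunit ribosomal RNA, passed the 2-fold rule, as 1 of 93 members at level, against 0.148% of all genes (17 of 11489, with 0.122% higher and 0.0261% lower). SNORD41 was at 13.63 with VPA, 13.62 with GEM, 12.08 with GEM_VPA and 13.21 in untreated cells. The GEM_VPA array stood alone at the low end, 2.19-fold below untreated cells (log2 ratio -1.13), while both single-drug arrays were slightly above untreated cells. TNPO2, its host, was at -0.23 for the same ratio. The next lowest were SNORA20 (-0.84), SNORD105 (-0.67), SNORD45B (-0.66) and SNORD34 (-0.65).

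Of the 192 members, 162 (84.4%) were lower with GEM_VPA than in untreated cells and 30 were higher, with a median ratio of -0.18. Among all other genes 57.2% were lower, with a median of -0.03. Of the 80 members at level on all arrays, 72 were lower (median -0.29), against 57.0% of 10591 other genes at level (median -0.03). In this set 42 of 43 box C/D members, 24 of 30 box H/ACA members and 6 of 7 scaRNAs were lower. At least 0.5 below 0 were 11 of the 80 members and 54 of the 10591 other genes. Cytosolic ribosomal protein genes, some of them hosts, were also mostly lower (52 of 60, 86.7%), with a smaller median of -0.11. Among 32 other short non-coding RNA genes (spliceosomal, Y, vault and 7S RNAs and the like) 26 were lower (median -0.10), as were 113 of 173 microRNA genes (median -0.06). The GEM_VPA array was the lowest of the 4 for 54 of the 80 members (67.5%) and for 25.4% of the other genes at level.

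**Figure D2:**
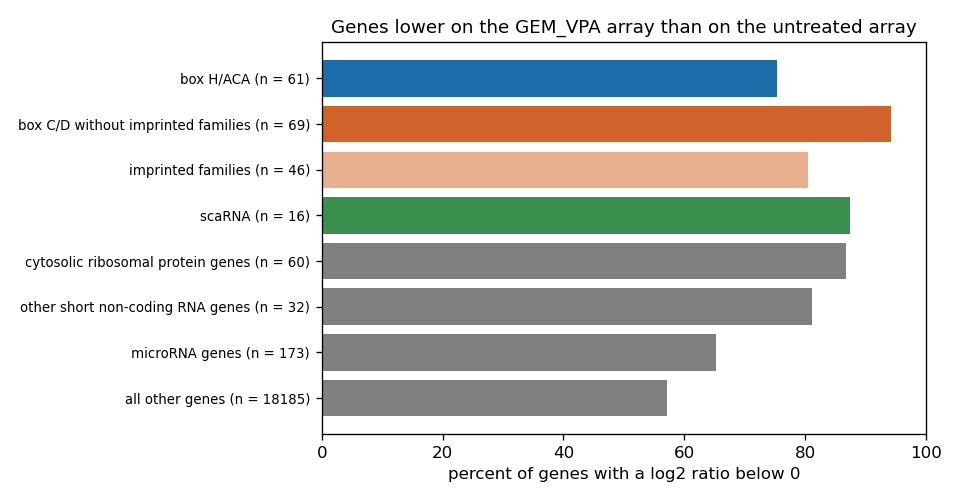
Percent of genes with a log2 ratio below 0 for GEM_VPA over untreated, by gene set, with the number of genes beside each name. The bar for box C/D genes without the imprinted families reaches 94.2%, that for box H/ACA genes 75.4%, that for ribosomal protein genes 86.7% and that for all other genes 57.2%.

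The shift was larger in the upper bands of mean level than in the lowest band. With GEM_VPA over untreated, the median ratio was -0.09 for the 107 members with a mean level below 8, -0.29 for the 51 between 8 and 10, and -0.35 for the 34 at 10 or above, of which 31 were lower. The lowest band holds all 46 imprinted family members. Among the 80 members at level on all arrays, r between mean level and the GEM_VPA over untreated ratio was -0.05. Array values near background are compressed, and the part of this in the pattern was not tested.

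GEM_VPA cells were next compared with cells given 1 drug. The members that passed the 2-fold rule in the deposited values were lower on the GEM_VPA array. SNORA13 was the exception near the limit, at 0.96 over VPA. It passed as higher with arrays centred on their medians (1.02) and after another quantile normalization (1.004). Its VPA level (6.91) was below the array median, and its GEM_VPA level (7.869) was just above that array's median (7.866). Over VPA the members that passed were 6 of 91 at level, against 1.68% of all genes lower, 1.48% higher and 3.16% in either direction. SNORD41 was at -1.56, SCARNA17 at -1.24, SCARNA7 at -1.24, SNORA22 at -1.23, SCARNA9 at -1.10 and SNORD94 at -1.003. SCARNA17, the longest member at 421 bases, was at 8.96 with GEM_VPA, 10.20 with VPA, 10.21 with GEM and 9.44 in untreated cells. Its 2 rows gave nearly the same ratio over VPA, -1.26 and -1.22. SNORA22, a box H/ACA guide of large-subunit ribosomal RNA, was at 10.70 with GEM_VPA, 11.93 with VPA, 11.85 with GEM and 11.17 in untreated cells. SNORD94, a box C/D guide of spliceosomal RNA, was at 8.37, 9.38, 9.31 and 8.65 on the GEM_VPA, VPA, GEM and untreated arrays. In all 3 the single-drug arrays were high, the untreated array intermediate and the GEM_VPA array lowest. SNORD94 was just short of 2-fold after 2 other normalizations. The 2 rows of SCARNA9 gave -1.40 and -0.81 over VPA.

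Over GEM, 4 of 89 members at level passed, all lower, against 1.78% of all genes lower, 3.60% higher and 5.38% in either direction. They were SNORD41 (-1.54), SCARNA9 (-1.48), SCARNA17 (-1.25) and SNORA22 (-1.15). The 2 rows of SCARNA9 gave -1.93 and -1.03. Just short of the limit SCARNA7 was at -0.97, SNORD94 at -0.94, SNORD32A at -0.92 and SNORD12C at -0.90. SNORA19, a box H/ACA RNA inside EIF3A, was the member with the highest ratio over GEM (1.15) but was below the median on every array, so it counted as higher only with no level limit. The comparisons over VPA and over GEM share the GEM_VPA array. SNORA80E, a box H/ACA RNA inside KHDC4, was at 8.67 with GEM_VPA, 9.66 with VPA, 9.37 with GEM and 8.83 in untreated cells, just short of 2-fold over VPA (-0.995). Over all members the medians were -0.06 over VPA and -0.11 over GEM, against -0.01 and -0.02 over all genes.

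Box H/ACA and box C/D genes were compared by their median log2 ratios, since levels of different probes cannot be set against each other. The classes lay close together. With VPA over untreated the medians were -0.16 for box H/ACA and -0.05 for box C/D, a difference of -0.11. With GEM over untreated they were -0.03 and -0.07. With GEM_VPA over untreated they were -0.19 and -0.20. Over VPA the combination gave -0.02 for box H/ACA and -0.07 for box C/D, and over GEM it gave -0.13 and -0.09. The 46 imprinted family members, all box C/D and all at low levels, weigh on these values. Without them the box C/D median for GEM_VPA over untreated was -0.34, a difference of 0.14 between the classes. For VPA over untreated it was -0.13 without them, leaving a difference of -0.03. Between members at level on all arrays, the class difference (H/ACA minus C/D) was 0.15 for GEM_VPA over untreated and between -0.06 and 0.02 in the other 4 comparisons. The difference between the classes was not tested.

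**Figure D3:**
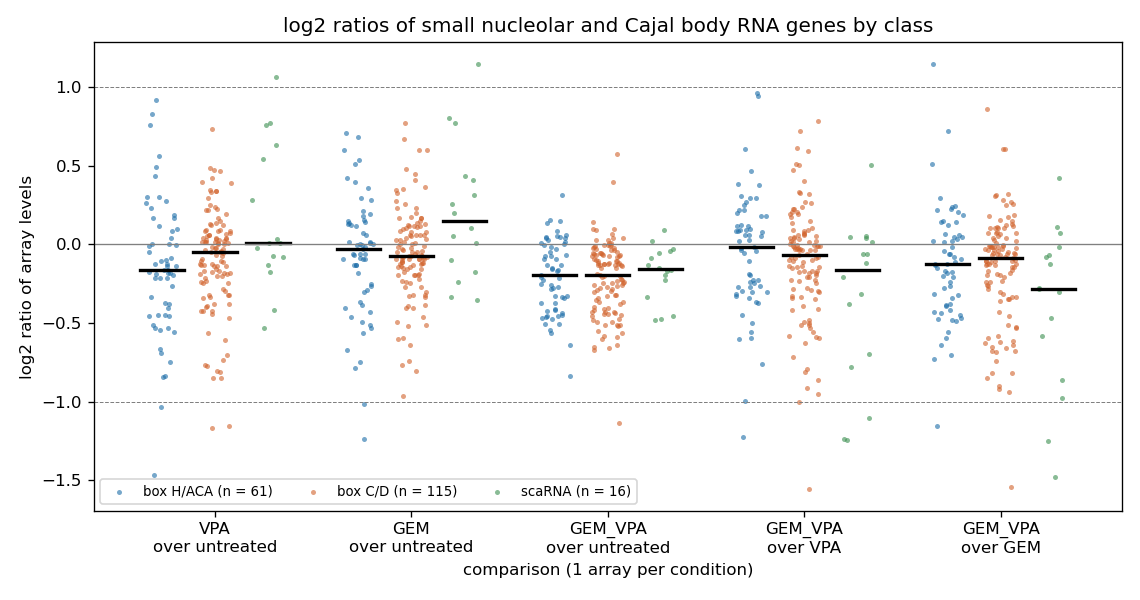
Log2 ratios of the 61 box H/ACA, 115 box C/D and 16 scaRNA genes in the 5 comparisons, 1 point per gene, with black bars at the class medians and dashed lines at the 2-fold limits. In GEM_VPA over untreated 162 of the 192 points lie below 0, while the other comparisons spread further to both sides of 0.

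The scaRNAs at level had a higher median ratio with each single drug than either snoRNA class at level. Of the 7 at level on all arrays, 6 were higher with VPA (median 0.54) and all 7 with GEM (median 0.31) than in untreated cells. With GEM_VPA 6 of the 7 were lower than untreated, with a median of -0.16. Over all 16 scaRNAs, most of the others below the median on some or all arrays, the single-drug medians were nearer 0. They were 0.01 with VPA (9 higher, 7 lower) and 0.15 with GEM (11 higher, 5 lower). SCARNA10, inside the condensin gene NCAPD2, was at 9.23 with VPA, 9.04 with GEM, 8.45 with GEM_VPA and 8.60 in untreated cells. SCARNA6, inside the autophagy gene ATG16L1, was at 8.76, 8.53, 8.06 and 8.22 on the same arrays. SCARNA12, SCARNA16 and SCARNA22 differed by at most 0.20 between either single drug and untreated cells. Across the 16 scaRNAs, which run from 125 to 421 bases, longer RNAs had higher ratios with VPA over untreated (r = 0.76) and lower ratios with GEM_VPA over VPA (r = -0.85). These correlations describe 16 genes on shared arrays. Among box H/ACA genes, of 123 to 236 bases, r between length and the VPA ratio was 0.09 (61 genes), and among box C/D genes, of 60 to 205 bases, r was 0.27 (115 genes).

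The change with VPA can be read in separate pairs of arrays that share none, VPA over untreated and GEM_VPA over GEM. Of the 192 members, 63 were higher with VPA alone and lower with VPA on top of GEM, 44 were the reverse, 69 were lower in both and 15 were higher in both. The ratio thus turned sign for 55.7% of members and for 68.7% of all other genes. Of the 80 members at level it turned for 52 (65.0%), against 74.3% of other genes at level, and 28 were lower in both pairs and 0 higher in both. The departure from additivity, the second of these log2 ratios minus the first, had a median of -0.31 over these 80 members and of 0.08 over 10591 other genes at level. It was below 0 for 55 of the 80 members and for 44.7% of the other genes. No degree of freedom is left to test it for a single gene.

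**Figure D4:**
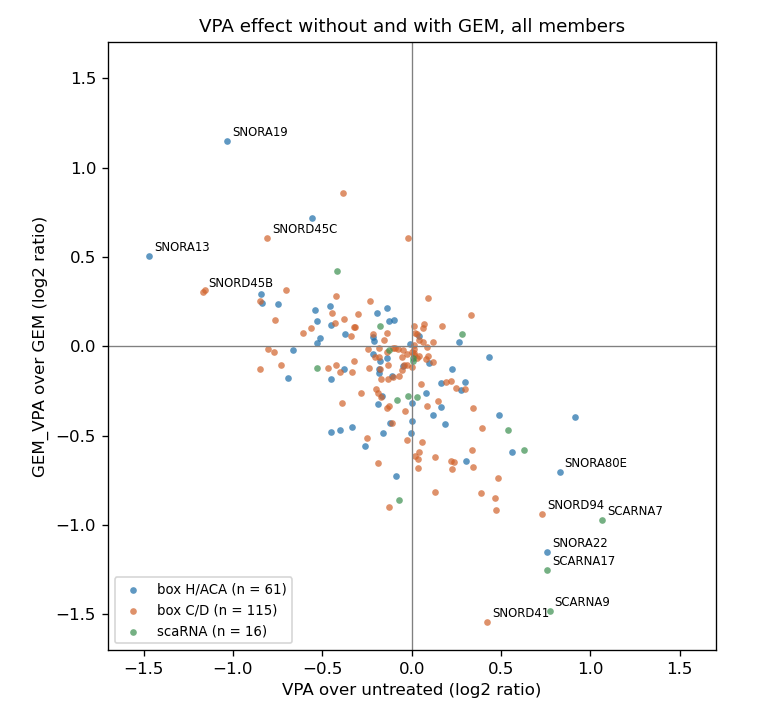
Log2 ratio of each of the 192 members for VPA over untreated (horizontal) and for GEM_VPA over GEM (vertical), coloured by class. SCARNA7, SCARNA9, SCARNA17, SNORA22 and SNORD94 lie at the lower right, SNORA13, SNORA19 and SNORD45B at the upper left, and SNORD41 at the bottom with -1.54 on the vertical axis.

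Of the 192 members, 178 lie inside exactly 1 RefSeq gene, 12 inside several and 2 inside none. The placing ignored strand, which is not used here for the snoRNAs. A single host was itself measured for 91 members in 69 hosts. With VPA over untreated, 54 of the 91 had the sign of their host (59.3%), and the correlation between member and host ratios was 0.15. With GEM over untreated it was 47 of 91 and 0.02, and with GEM_VPA over untreated 57 of 91 and 0.28. Among the 45 of these members at level on all arrays, 22 had the sign of their host with VPA over untreated (r = -0.004). The count was 17 with GEM over untreated (r = -0.03) and 30 with GEM_VPA over untreated (r = 0.23). Members in 1 host are not independent, and these correlations are descriptions across genes. With GEM_VPA over untreated the median was -0.19 for the members and -0.03 for the hosts, and 70 of the 91 were below their host. With VPA over untreated the medians were -0.08 for the members and -0.26 for the hosts, with 63 of the 91 above their host. With GEM over untreated the host median was -0.17 and again 63 of the 91 were above their host. NCAPD2, which drives chromosome condensation, was at -0.69 with VPA while its SCARNA10 was at 0.63. CEP295, a centriole gene, was at -0.58 with GEM while its SCARNA9 was at 1.15. POLA1, the catalytic subunit of DNA polymerase alpha, was at -1.72 with GEM, and its SCARNA23, below the median on every array, was at -0.24. KPNA4, the host of SCARNA7, was at 0.18 with VPA, and PTCD3, the host of SNORD94, was at -0.55.

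Guides of the same host could differ in direction, as in these hosts, chosen after their values were seen. SNORD45A, in RABGGTB, was at 12.52 with VPA, 12.38 with GEM, 11.73 with GEM_VPA and 12.29 in untreated cells. SNORD45C, in the same host, was at 9.31, 9.31, 9.92 and 10.12 on those arrays. SNORD45A was thus slightly high and SNORD45B and SNORD45C low on the single-drug arrays, and RABGGTB itself was at -0.81 with VPA. In RPL13A, SNORD32A was at 11.74 with VPA, 11.75 with GEM, 10.83 with GEM_VPA and 11.27 in untreated cells. SNORD34, in the same host, was at 9.47, 9.63, 9.62 and 10.27. The VPA ratio was 0.47 for SNORD32A, 0.22 for SNORD33, 0.06 for SNORD35A and -0.80 for SNORD34. Likewise SNORA3A and SNORA3B, both in RPL27A, were at 0.19 and -0.84 with VPA, while RPL27A was at -0.01.

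The 7 measured guides of GAS5, a non-coding host with many box C/D RNAs, were on 1 side with GEM_VPA over untreated. All 7 were lower, between -0.60 and -0.12, and with VPA over untreated they lay between -0.47 and 0.03. With GEM over untreated 5 of the GAS5 guides were higher and 2 lower. Being on 1 side with GEM_VPA was not particular to GAS5. In that comparison the 3 guides of RABGGTB, the 4 of RPL13A and the 2 of RPL27A were all lower too. Of 15 listed non-coding hosts, 2 had a row of their own, and SNHG17 and SNHG29, outside the list, had one too. ZFAS1 was at -0.18 with VPA, -0.08 with GEM and -0.21 with GEM_VPA, and EPB41L4A-AS1, which along with EPB41L4A contains SNORA13, was at -0.66, -0.16 and -0.41. SNHG17, around SNORA71A, SNORA71C and SNORA71D, was at -0.39, -0.20 and -0.23, and SNHG29, around SNORD49A, at -0.34, -0.22 and -0.07 in the same comparisons. The 40 members of SNHG14 and the 6 of MEG8 are the imprinted families described above.

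**Figure D5:**
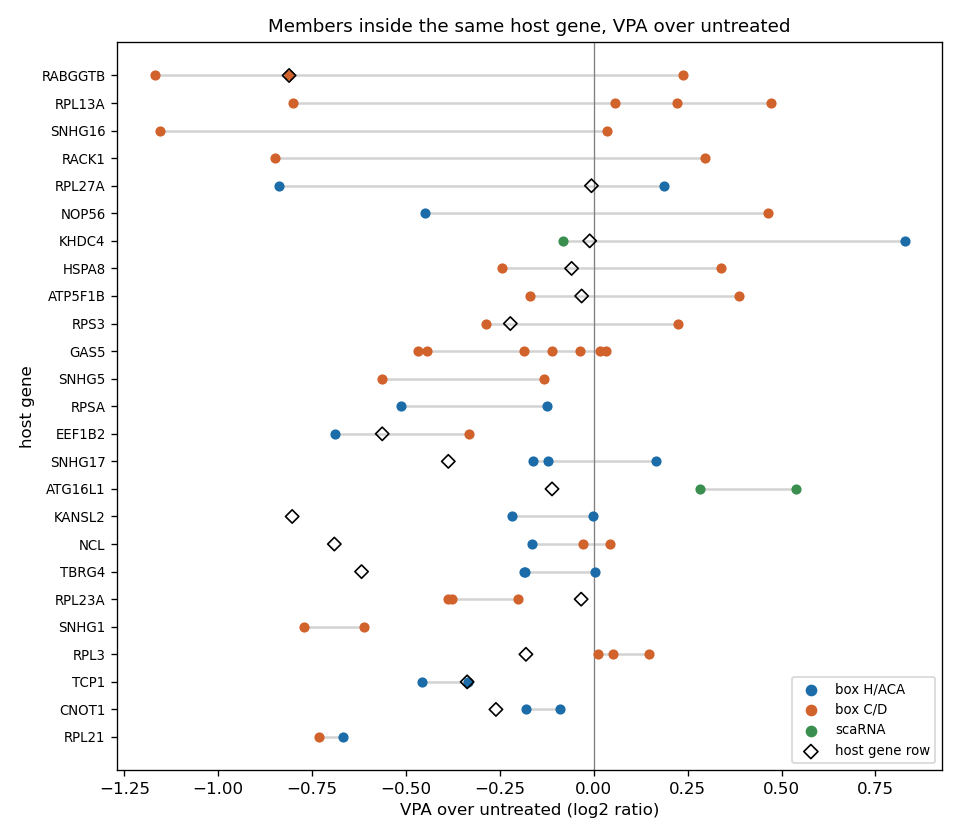
Log2 ratios for VPA over untreated of members that share a host gene (filled points, coloured by class; grey lines join the members of 1 host) with the host's own row where measured (open diamonds). RABGGTB and RPL13A have the widest spreads, from -1.17 to 0.24 and from -0.80 to 0.47 among the hosts drawn, which leave out SNHG14, MEG8 and 1 further host.

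Of 15 listed RNAs that act in cutting the ribosomal RNA precursor, 3 were measured by a row of their own. SNORD13, which helps form the small-subunit RNA, was at 14.11 with VPA, 14.11 with GEM, 13.76 with GEM_VPA and 13.76 in untreated cells. SNORD14C was at 12.39, 12.37, 11.79 and 12.05 on the same arrays, and SNORD14E, from the same host HSPA8, was at 9.79, 9.64, 9.63 and 10.04. SNORD13 and SNORD14C were thus highest on the single-drug arrays and SNORD14E in untreated cells, and their ratios to untreated cells lay between -0.41 and 0.34. HSPA8 itself was between -0.06 and 0.01 in the comparisons with untreated cells.

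Genes for the proteins that bind or assemble these RNAs were mostly lower with either single drug. DKC1, the dyskerin of box H/ACA particles, was at 9.99 with VPA, 10.26 with GEM, 11.04 with GEM_VPA and 11.22 in untreated cells, a ratio of -1.23 with VPA and -0.96 with GEM. DKC1 was the only gene among 20 measured core and assembly genes to pass the 2-fold rule in any comparison. It was lower in VPA over untreated and higher in GEM_VPA over VPA. In either direction the rule counted 4.00% of all genes at level in the first of these comparisons and 3.16% in the second. FBL, the box C/D methyltransferase fibrillarin, was at 12.40, 12.23, 13.09 and 13.10 on the VPA, GEM, GEM_VPA and untreated arrays. The 14 assembly and Cajal body factors were all below 0 with VPA (median -0.52) and with GEM (median -0.37), and 10 of 14 were below 0 with GEM_VPA (median -0.07). Of 10591 other genes at level on all arrays, 56% were below 0 with VPA, 55.8% with GEM and 57% with GEM_VPA. Their medians were -0.05, -0.05 and -0.03. NOP10 was at 12.17 with VPA and 12.15 in untreated cells, and WRAP53, which brings scaRNAs to Cajal bodies, was at 9.78 in both. RPAP3 (-0.79) and DBR1, the enzyme that opens intron lariats (-0.76), were the lowest assembly and processing factors with VPA.

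With limma, the mean effect of VPA and that of GEM across their array pairs were tested over 11285 genes. No member passed an adjusted p of 0.05 for VPA or GEM, and 0 of the 87 members tested had an unadjusted p under 0.05 for either drug. Among all 11285 genes the counts at an unadjusted p under 0.05 were 21 for VPA and 0 for GEM, and 0.00% passed after adjustment for either drug. The residual of this model holds the departure from additivity, so the test is weak for members that turned sign between the pairs.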

How the data were processed

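Total RNA of each condition was hybridised to Affymetrix Human Gene 1.0 ST arrays, per the labels. The deposited values are log2 intensities that the authors normalized in GeneSpring GX 11.5 (series text) with RMA (the submitters' processing notes). No source used here names the genome build, and scanner files were not used here. Rows with 1 symbol in the platform annotation were averaged per gene; 198 rows gave the 192 members, all matched to RefSeq by Entrez ID, and 76 rows naming several genes were left out. Members, lists and rules were chosen with earlier results of these data known.

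A ratio is the difference of 2 arrays on the log2 scale. Genes counted as different had a ratio of at least 1 in size and a higher value at or above its array median. The average drug effects were tested with limma 3.58.1 in R 4.3.3. The model was additive, with 1 residual degree of freedom and Benjamini-Hochberg adjustment. It covered genes with a mean level at or above the median of all values. The steps were also run on simulated data with additive effects only. That run cannot show how they behave where genes depart from additivity. Python 3.11.15 and pandas 2.3.3 did the rest. Hosts are RefSeq genes that contain the member; 1 host is not reported here.

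Named members were the 10 highest and 10 lowest that passed the rule in each comparison, the 10 largest departures among members at level on at least 1 array, the processing RNAs, passing core and assembly genes, and hosts. Others, such as SNORA19, SNORA24, SNORA38B, SNORD34, SCARNA6 and SCARNA10, were chosen after their values were seen, as were the sets of other short RNAs, ribosomal proteins and level bands. Alternatives covered normalization, level filter, fold limit, row choice, list summary and the limma settings. The number of arrays limits the precision.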

Additional observations from a re-analysis of the deposited data

Results flagged for a closer look

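For 10 members named by the rule, the effect of each drug had opposite signs without and with the other drug, a difference that was not tested because each condition has 1 array. The departure from additivity (log2) was -2.25 for SCARNA9, -2.04 for SCARNA7, -2.01 for SCARNA17, -1.97 for SNORD41, -1.91 for SNORA22, -1.67 for SNORD94 and -1.53 for SNORA80E. It was 1.98 for SNORA13, 1.47 for SNORD45B and 1.42 for SNORD45C. These members were named partly for the size of this value. SCARNA9, SNORA13 and SNORD45B were each below the array median on some of the arrays. The effect of VPA turned sign in 68.7% and that of GEM in 76.2% of all other genes. Both effects turned together, as the flag requires, when both single-drug arrays lay above or below both remaining arrays. They lay above in 30.6% and below in 30.7% of all other genes, and in 26.6% and 21.9% of members. The flag thus describes most of the array as well.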

How the results depend on the processing

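With 1 array per condition no replicate could be left out, and array and condition cannot be told apart. No paired analysis was possible because each condition has 1 sample and no replicate number could serve as a block; the additive limma model instead averages the array pairs of each drug. A limit of 1.5-fold gave 19 members for VPA, 18 for GEM and 7 for GEM_VPA over untreated, 22 for GEM_VPA over VPA and 24 for GEM_VPA over GEM. These were 20.0%, 19.1%, 7.53%, 24.2% and 27.0% of members at level, against 17.0%, 17.0%, 1.60%, 15.1% and 18.5% of all genes at level in the same comparisons. A limit of 3-fold gave 0 members in each and 0.00870% to 0.902% of all genes. With no level filter VPA over untreated had 5 members in place of 3 (2.60%, against 2.66% of all genes). With the 75th percentile as the filter it had 1 (2.00%, against 5.26%) and GEM over untreated 0 (against 5.77%). The direction of calls in GEM_VPA over VPA, 6 lower and 0 higher, was 5 lower and 1 higher with arrays centred and 7 lower and 1 higher after another quantile normalization, and GEM_VPA over GEM had 1 higher with no level filter. The box H/ACA minus box C/D difference, 0.003 for GEM_VPA over untreated, was 0.145 without the imprinted families and 0.153 with 1 value per host. Without these families it was 0.16 for GEM_VPA over VPA and 0.11 for GEM_VPA over GEM, against 0.05 and -0.04 with them. SNORD94 in GEM_VPA over VPA was at -0.95 with arrays centred on their medians and -0.99 after another quantile normalization; the other 46 checks of named members kept their calls. The share of members lower with GEM_VPA than in untreated cells (84.4%) lay between 79.2% and 90.3% under 6 alternatives added after seeing the data. The counts of limma calls were 0 under all 4 alternatives for each drug.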

Other observations

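The 76 rows that name several genes, at least 1 of them a snoRNA or scaRNA, were outside the comparisons. With GEM_VPA over untreated 66 of the 76 were lower, with a median log2 ratio of -0.21. Of the 23 that name only such genes 16 were lower (median -0.12), and with GEM_VPA over GEM 21 of the 23 were lower (median -0.19). With VPA over untreated 14 of these 23 were higher and 9 lower, with a median of 0.02 (0.015).

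SNORD13P3, annotated as a pseudogene copy of SNORD13, was at 14.02 with VPA, 13.98 with GEM, 13.53 with GEM_VPA and 13.63 in untreated cells. SNORD13P1 and SNORD13P2 were below the median on every array.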
